A study of Homo sapiens with 11 samples.

Results

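LOUCY, JURKAT and HPB-ALL are the T-cell lines in which the homeobox gene MSX1 was read high, and they are compared here with the other 8 lines of the same series across all genes on the array. They were chosen by the measurement itself: a line was taken where 1 MSX1 probe set exceeded the median of the remaining 10 lines by 2 log2 units or more, which selected 3 of 11 lines. All 11 lines are labelled as cell lines of T-cell acute lymphoblastic leukemia (T-ALL), a malignancy of developmentally arrested T-cell progenitors. Each was profiled once, untreated as far as the labels tell, on an Affymetrix HG U133 Plus 2.0 chip. The labels divide them by activity of NKL homeobox genes into 6 NKL-positive lines, which besides the selected lines are PEER, CCRF-CEM and ALL-SIL, and 5 NKL-negative lines, SUP-T1, MOLT-16, CML-T1, MOLT-14 and MOLT-4. All 3 MSX1-expressing lines are therefore NKL-positive, against 3 of the other 8. Each line stems from 1 tumor and stands for itself. With 1 array per line, the spread between lines holds differences between tumors, cultures and arrays, which cannot be told apart. Levels in bulk RNA cannot tell a smaller share of positive cells from less RNA per cell.

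MSX1 is a homeobox gene of the NKL subclass and encodes a transcription factor that binds DNA through its homeodomain and recruits TLE corepressors. It is known from craniofacial and limb development, where it responds to bone morphogenetic protein (BMP) signalling. In blood it is described as a gene of lymphoid progenitors, and subsets of T-ALL carry it aberrantly. AUTS2, a subunit of a variant polycomb repressive complex, and several other homeodomain proteins are named by the study as its regulators.

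MSX1 itself served for the selection, so its levels are given as a description only. The probe set used for the selection read 8.04 in LOUCY, 7.69 in JURKAT and 6.95 in HPB-ALL on the log2 scale of the deposited values. The nearest lines outside the selection were MOLT-4 at 5.59, CCRF-CEM at 5.50 and MOLT-14 at 5.42, and the remaining 5 read between 3.21 in CML-T1 and 3.82 in MOLT-16. Thus, HPB-ALL was the member closest to the limit, with a gap of 2.33 to that median, and MOLT-4 was the closest outside it, at 0.97. The second MSX1 probe set on the array did not separate these lines. It read 4.54 in LOUCY, 4.78 in JURKAT and 4.28 in HPB-ALL, within the range of 3.76 to 5.29 in the other 8 lines. The selection hence rests on 1 probe set, and both were left out of every comparison below.

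**Figure D1:**
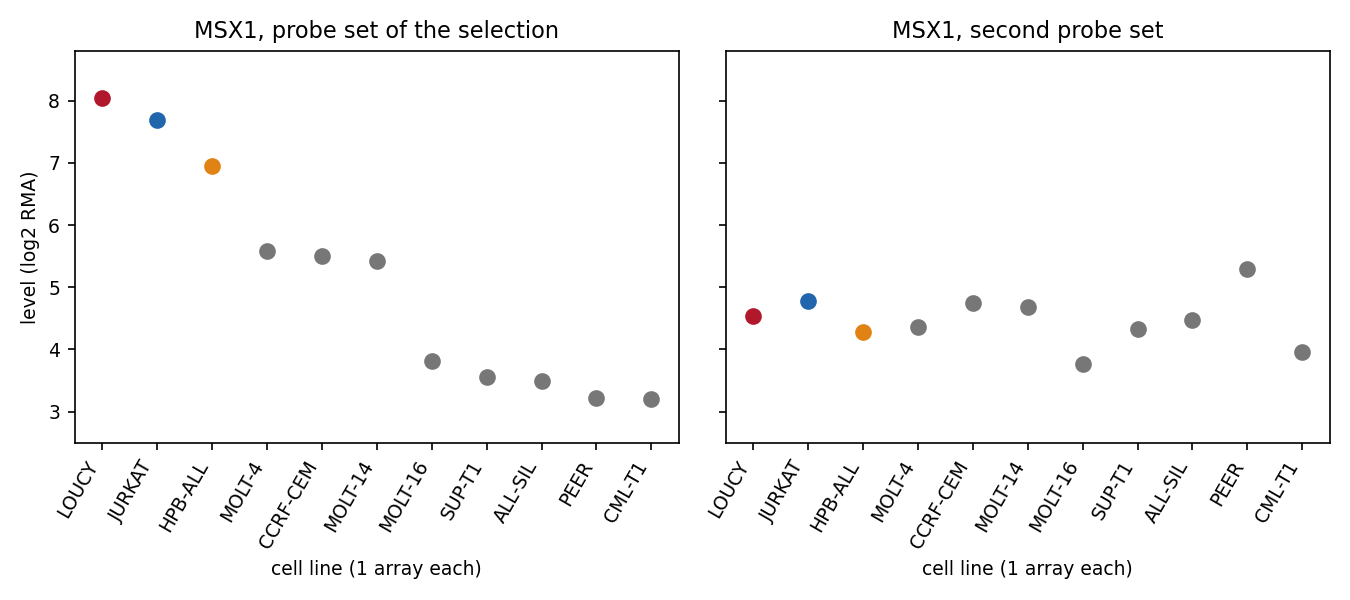
Levels of both MSX1 probe sets (log2 RMA, vertical axis) in the 11 lines, 1 point per array, ordered by the probe set of the selection (left); LOUCY, JURKAT and HPB-ALL are coloured. On the left the selected lines lie at 6.95 to 8.04 and the others at 3.21 to 5.59, whereas on the right both groups share one range.

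The arrays were comparable in level, with medians of 4.63 to 4.76. RNA quality controls differed by less than the spread between lines: the ACTB 3' minus 5' signal was 0.54 ± 0.39 (SD, n = 3) against 0.73 ± 0.30 (SD, n = 8), with a two-sided exact permutation p of 0.412 over all choices of 3 lines. The poly-A spike-in controls were at the level of the array background in MOLT-16, CML-T1 and HPB-ALL, that is in 1 of 3 and 2 of 8 lines, and gave signal in the other 8 arrays. CD3 chains and T-cell receptor signalling genes had list means of 8.56 to 8.99 in the selected lines and 7.94 to 9.50 in the others.

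No gene separated the MSX1-expressing lines from the others at the threshold of the genome-wide test. By limma with Benjamini-Hochberg adjustment, 0 of 54611 probe sets (0%) had an adjusted p below 0.05, while at an unadjusted p below 0.05 there were 1111 higher and 691 lower ones. Read with 1 probe set per gene, 688 of 19774 genes (3.48%) were below the unadjusted limit. The probe set with the smallest adjusted p was that of HECTD2, a HECT-type ubiquitin ligase gene, which is named after its values were seen. HECTD2 read 6.31 in LOUCY, 6.24 in HPB-ALL and 5.11 in JURKAT, and 2.92 to 3.74 in the other 8 lines. The groups did not overlap, the difference was 2.52 ± 0.28 (SE) on the log2 scale, and the limma adjusted p was 0.0683. HECTD2 came under the threshold with quantile normalization (limma adjusted p 0.0429), with a floor under dim values (0.0118), with a term for NKL status (0.038), with 1 probe set per gene fitted alone (0.0275) and without JURKAT (0.00142). The term for NKL status takes the difference to the other NKL-positive lines, ALL-SIL, CCRF-CEM and PEER. With the mean over its probe sets HECTD2 differed by 1.02 with a limma adjusted p of 0.675, the highest over its alternatives.

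Described without a test, 104 of 19774 genes (0.526%) were higher in all 3 MSX1-expressing lines than in any other line, and 52 (0.263%) were lower. Of the higher genes, 44 differed by at least 1 log2 unit, 24 by at least 2 and 8 by at least 3. Of the lower genes, 8 differed by at least 1, 1 by at least 2 and 0 by at least 3. The median difference was 0.86 among the higher and -0.64 among the lower genes. In 21 of the 52 lower genes the mean of the selected lines lay below the lower quartile of the array, so these concern dim probe sets.

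The largest differences upward among these genes are described first. MAN1A1, a Golgi mannosidase that trims N-glycans, had the largest and read 9.52 in JURKAT, 8.17 in HPB-ALL and 6.46 in LOUCY, and 2.88 to 5.22 in the other lines. The difference was 4.07 ± 0.64 (SE), or 16.8-fold (limma adjusted p 0.455). A second MAN1A1 probe set was higher by 2.14, with 6.81 in JURKAT and 6.68 in HPB-ALL. LOUCY read 4.09 there, below MOLT-16 at 4.52, so that the groups overlapped. MAN1A1 came under the threshold without LOUCY, with a difference of 4.86 and a limma adjusted p of 0.0482. GALNT12, which starts mucin-type O-glycosylation, read 8.04 to 8.16 in the selected lines against 2.53 to 7.87. VPS37B, a subunit of the ESCRT-I sorting complex, read 8.32 to 8.63 against 3.08 to 8.26. For both genes the closest other line was CCRF-CEM. OSBPL1A, an oxysterol-binding protein, read 6.78 in LOUCY, 7.18 in JURKAT and 6.98 in HPB-ALL, and 3.28 to 5.59 in the others (difference 2.71 ± 0.49 SE, limma adjusted p 0.74).

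LAPTM4B, which encodes a lysosomal membrane protein, showed a split within the other lines. It read 11.45 in JURKAT, 11.15 in LOUCY and 10.79 in HPB-ALL. The NKL-negative lines reached 8.41 to 10.62, whereas the other NKL-positive lines ALL-SIL, CCRF-CEM and PEER read 2.79, 2.80 and 2.83. Across all 11 lines the difference was 4.04 ± 1.92 (SE, limma adjusted p 1). With a term for NKL status 4 LAPTM4B probe sets passed. The selected lines are all NKL-positive, so this term estimates the same difference, to ALL-SIL, CCRF-CEM and PEER, as the NKL-positive lines alone. Among the NKL-positive lines alone LAPTM4B differed by 8.32, with a limma adjusted p of 0.00105. ASAP2, a GTPase-activating protein for ARF proteins, also passed in this subset. It read 8.16 in LOUCY, 7.61 in JURKAT and 7.37 in HPB-ALL against 2.94 to 7.12, and among NKL-positive lines the difference was 4.41 with a limma adjusted p of 0.0389.

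DOCK4, a guanine nucleotide exchange factor of small GTPases, read 7.55 in HPB-ALL, 7.37 in JURKAT and 5.97 in LOUCY, and 3.17 to 5.27 in the other lines (difference 3.01 ± 0.52 SE, limma adjusted p 0.643). Its other 3 probe sets differed by 0.22, 0.03 and 0.62, and the mean over all of them by 0.97. RAI14, an actin-associated ankyrin repeat protein, read 7.41 in LOUCY, 6.56 in HPB-ALL and 5.99 in JURKAT. The others lay at 2.92 to 5.15, the difference was 3.05 ± 0.57 (SE) and the limma adjusted p 0.74. CYB5A, the electron carrier cytochrome b5, read 11.31 in HPB-ALL, 9.29 in LOUCY and 9.16 in JURKAT, but SUP-T1 reached 8.99 and CML-T1 8.98, so that 2 of the selected lines were within 0.3 of other lines.

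TSHZ3, a teashirt zinc finger gene, read 8.08 in HPB-ALL, 7.22 in LOUCY and 6.25 in JURKAT against 3.38 to 5.97, a difference of 2.61 ± 0.51 (SE, limma adjusted p 0.84). TP53INP1, a p53-inducible gene, read 8.99 in HPB-ALL, 8.32 in LOUCY and 8.13 in JURKAT, and PEER was next at 8.11. Its other probe sets differed by -0.49 and 0.71, whereas the further probe sets of TSHZ3 and GALNT12 differed by 1.70 and 1.99, and those of OSBPL1A by 2.19 and 0.56. SPATA20 read 6.72 to 9.10 in the selected lines and 4.22 to 6.25 in the others. The noncoding genes DUXAP10 and LINC01296 were read high in the same lines, and whether their probe sets share sequence was not tested. DUXAP10 gave 9.06 in JURKAT, 7.93 in LOUCY and 7.82 in HPB-ALL, and LINC01296 gave 8.03, 7.38 and 7.52. Outside these lines both were next highest in ALL-SIL, PEER and CML-T1, with 6.81 to 7.05 for DUXAP10 and 6.1 to 6.5 for LINC01296. A second DUXAP10 probe set was higher by 2.17 but overlapped, with LOUCY at 3.85, below CML-T1 at 5.36 and ALL-SIL at 5.05.

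Among the genes without overlap DPP4 showed the largest difference downward. It encodes CD26, a peptidase on the T-cell surface, and read 3.16 in HPB-ALL, 3.73 in LOUCY and 4.25 in JURKAT. Among the others it ranged from 4.29 in CCRF-CEM to 9.64 in CML-T1, so that JURKAT and CCRF-CEM were nearly level and ALL-SIL, PEER, CML-T1 and MOLT-16 stood out upward. The difference was -2.89 ± 1.16 (SE, limma adjusted p 1), with -3.53 and -2.72 for its other probe sets. ESF1, a nucleolar protein of ribosomal RNA processing, was lower by a smaller amount but with less spread: 7.34 in JURKAT, 7.66 in HPB-ALL and 7.75 in LOUCY against 8.34 to 8.83 (difference -1.02 ± 0.19 SE, limma adjusted p 0.74). A second ESF1 probe set differed by -0.17. ZFP36L2, which destabilises mRNA, read 9.48 in LOUCY, 10.19 in HPB-ALL and 10.72 in JURKAT against 10.78 to 12.14.

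The remaining lower genes of this group were NKTR, a cyclophilin-related gene (difference -1.03), NIFK-AS1 (-1.13), the histone chaperone subunit UBN1 (-0.97), TCF25 (-0.93), ZNF276 (-0.92) and IFT56, a component of intraflagellar transport (-0.999). TCF25 read 7.84 to 8.58 in the selected lines against 8.77 to 9.70, and ZNF276 read 5.60 to 5.76 against 6.21 to 7.32, both with a limma adjusted p of 1. HECW2-AS1, LINC02580, IGHV7-81, SCN2A, WNT2B and BFSP2-AS1 completed the 15 largest. Their levels in the selected lines were 2.61 to 4.48, below the array medians and beside lower quartiles of 3.45 to 3.60, and their differences ran from -0.81 to -1.57.

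**Figure D2:**
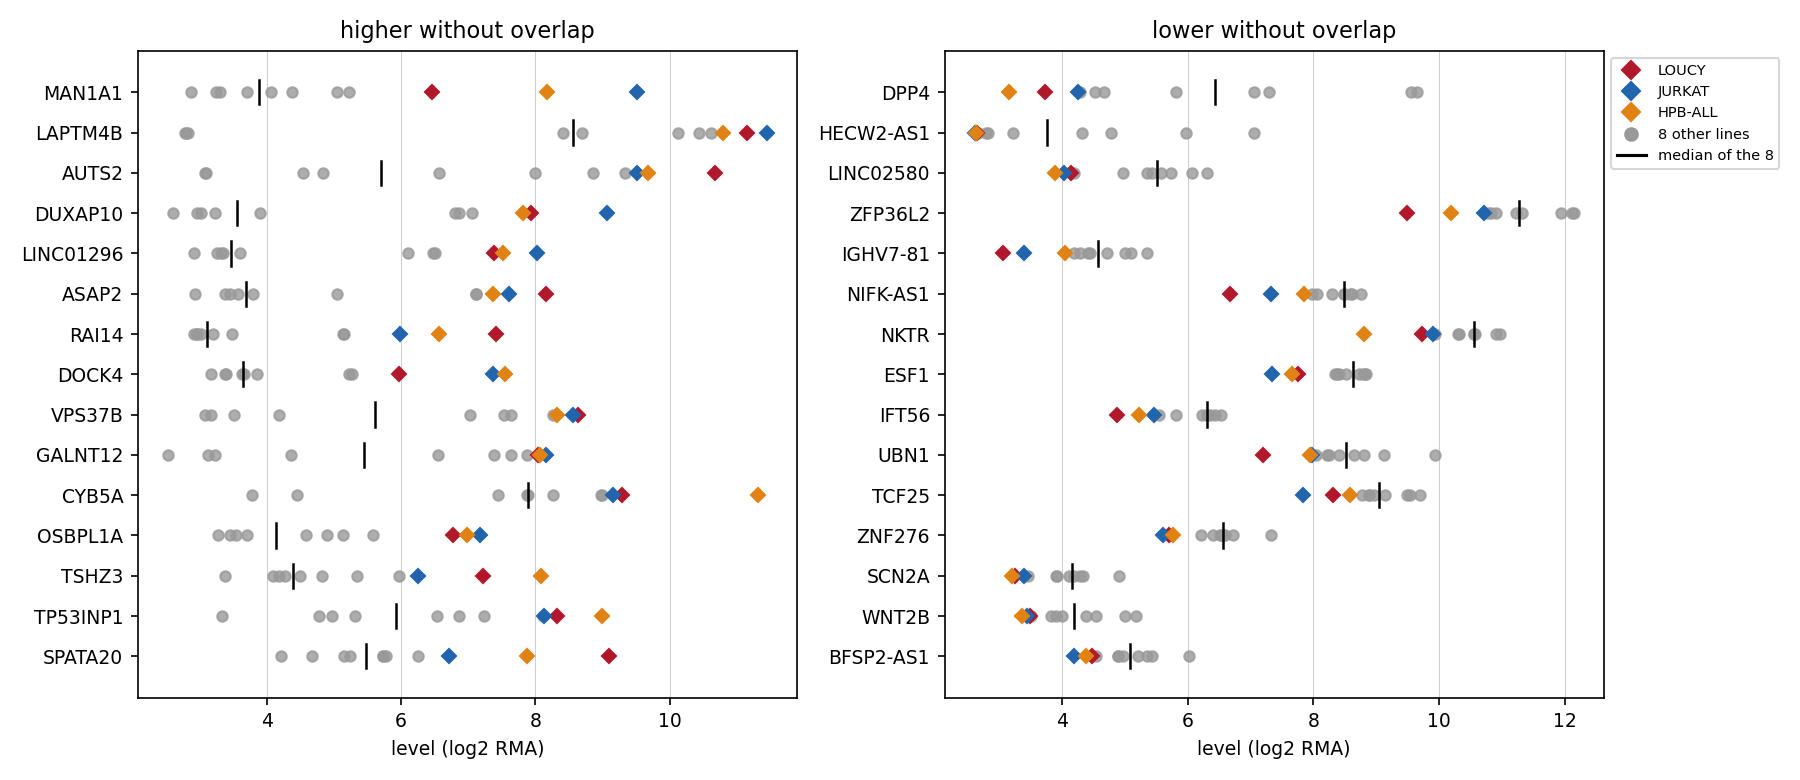
Levels (log2 RMA, horizontal axis) of the 15 genes with the largest difference upward (left) and downward (right) among those whose 3 MSX1-expressing lines (diamonds) do not overlap with the 8 other lines (grey circles); the bar marks the median of the 8. MAN1A1, RAI14, DOCK4 and OSBPL1A show a gap between the groups, whereas for VPS37B, GALNT12, DPP4 and ZFP36L2 single other lines lie next to the diamonds.

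The rule that had picked the lines by MSX1 was also applied to every other gene. MAN1A1, DUXAP10, LINC01296, OSBPL1A, DOCK4 and RAI14 exceeded that median by 2 log2 units or more in LOUCY, JURKAT and HPB-ALL and in no further line, 6 of 19774 genes (0.0303%). DUXAP10 and LINC01296 may count as 1 reading here, since shared sequence was not tested. Each gene was read from 1 probe set, and the second probe sets of MAN1A1 and DUXAP10 were not high in LOUCY. Below the limit the order of the lines differed between the 6 genes. CML-T1, PEER and ALL-SIL came next for the noncoding genes, but MOLT-4 at 5.22 and CCRF-CEM at 5.04 for MAN1A1. MOLT-4 was also next for OSBPL1A (5.59) and RAI14 (5.15), and CML-T1 for DOCK4 (5.27). 15 genes stood out in the 3 lines when further lines were allowed, including AUTS2 (with SUP-T1) and ASAP2 (with CML-T1 and MOLT-4). Most genes that stood out in a selected line did so without the other two. HPB-ALL had 508 such genes, LOUCY 486 and JURKAT 393, of which 192, 173 and 118 stood out in that line alone. HPB-ALL and LOUCY shared 81 genes (15.9% and 16.7% of their lists), HPB-ALL and JURKAT 72 (14.2% and 18.3%) and LOUCY and JURKAT 57 (11.7% and 14.5%). In the other lines the number ranged from 195 in ALL-SIL and MOLT-4 to 660 in CML-T1.

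**Figure D3:**
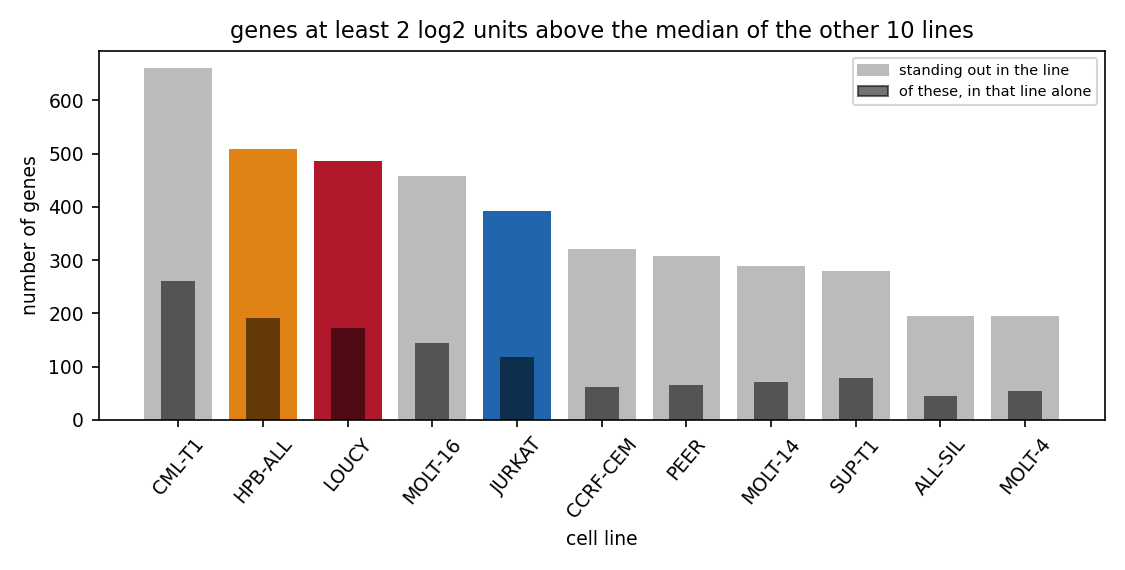
Number of genes (vertical axis) that exceed the median of the remaining 10 lines by 2 log2 units or more, per line; inner dark bars count genes standing out in that line alone, and HPB-ALL, LOUCY and JURKAT are coloured. These lines have 508, 486 and 393 genes, and CML-T1 has the highest count with 660.

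Across all genes the MSX1-expressing lines did not resemble each other more than they resembled the rest. The mean Euclidean distance was 166.7 (159.8 to 178.6) among the 3 lines, 156.8 between them and the others, and 152.9 among the 8. The nearest line was PEER for LOUCY, MOLT-4 for JURKAT and CCRF-CEM for HPB-ALL. Each of the 3 lines read high for a different T-ALL oncogene. TLX3, an NKL homeobox oncogene, read 7.92 in HPB-ALL and 2.88 to 3.89 in all other lines. TAL1, a basic helix-loop-helix oncogene, read 10.74 in JURKAT, 3.38 in LOUCY and 2.71 in HPB-ALL, and up to 9.0 elsewhere. LYL1, its relative, read 11.30 in LOUCY against 6.35 in JURKAT and 6.66 in HPB-ALL, with 5.52 to 9.66 in the other lines.

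The genes that the study ties to MSX1 were then read line by line. AUTS2 was the one without overlap: 10.67 in LOUCY, 9.68 in HPB-ALL and 9.52 in JURKAT. The other lines spread from 3.08 in PEER over 6.57 in MOLT-16 and 8.86 in CML-T1 to 9.33 in SUP-T1, and so the difference of 3.92 ± 1.34 (SE) had a limma adjusted p of 1. The 2 further AUTS2 probe sets were higher by 0.81 and 0.51, but the groups overlapped in both. JURKAT read 3.31 and 4.25 there, against 4.87 and 6.68 in SUP-T1. HHEX, a homeobox gene of hematopoietic progenitors, read 10.89 in LOUCY, 5.28 in HPB-ALL and 3.34 in JURKAT, while CCRF-CEM reached 10.61 and PEER 9.92. Hence HHEX was high in 1 of the 3 lines and also in lines outside the selection. NKX2-3 was at 2.82 to 3.11 in the selected lines and 2.75 to 3.49 in the others, below or at the lower quartile of the arrays. HLX, a further NKL gene, read 3.92 to 4.73 against 3.21 to 4.83.

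Components of BMP signalling and further factors overlapped between the groups. BMP4, a ligand, read 7.80 in HPB-ALL, 5.81 in JURKAT and 4.43 in LOUCY against 4.29 to 8.28. BMPR2, a receptor, read 7.98 in LOUCY, above the 5.87 to 7.37 of the others, but 6.81 in JURKAT and 5.69 in HPB-ALL. SMAD7, an inhibitor of the pathway, read 5.48, 4.25 and 2.96 in LOUCY, JURKAT and HPB-ALL against 2.92 to 6.84. The polycomb subunit PCGF5 read 7.92 to 9.74 against 7.99 to 10.38, and the T-cell activation factor NFATC2 7.96 to 8.70 against 4.03 to 9.20. The T-lineage factor GATA3 read 12.66 in LOUCY, above every other line, and 11.68 and 11.13 in JURKAT and HPB-ALL, and its difference of 0.55 was 0.13 without LOUCY. Each of these genes had a limma adjusted p of 1.

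**Figure D4:**
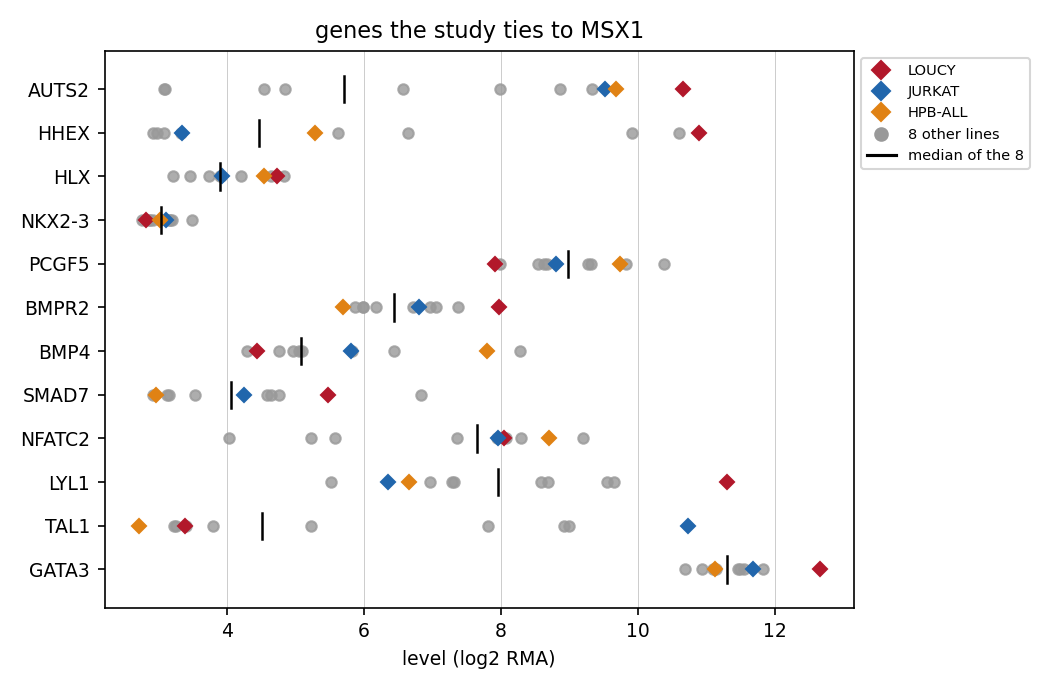
Levels (log2 RMA, horizontal axis) of 12 genes that the study connects with MSX1, in LOUCY, JURKAT and HPB-ALL (diamonds) and the 8 other lines (grey circles); the bar marks the median of the 8. For AUTS2 the diamonds lie at 9.52 to 10.67, above all circles, and for HHEX, LYL1 and TAL1 they lie far apart from each other.

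The promoters of 3 genes without overlap are shown because a homeodomain protein acts through short AT-rich sites. They comprise AUTS2, DOCK4 of the genes that stood out in exactly the 3 lines, and CYB5A, whose promoter held the searched motif. Each is the 250 bases before the annotated start, read from the RefSeq promoter table (GRCh38.p14), 5′ to 3′ on the strand of the gene, with the motif in capitals:
AUTS2 (chr7:69598225-69598474, plus strand): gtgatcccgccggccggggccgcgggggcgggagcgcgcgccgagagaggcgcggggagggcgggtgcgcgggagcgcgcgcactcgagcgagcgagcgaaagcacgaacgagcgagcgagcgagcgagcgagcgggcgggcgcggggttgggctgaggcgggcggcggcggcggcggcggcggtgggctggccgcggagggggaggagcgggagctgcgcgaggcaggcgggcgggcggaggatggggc
DOCK4 (chr7:112206400-112206649, minus strand): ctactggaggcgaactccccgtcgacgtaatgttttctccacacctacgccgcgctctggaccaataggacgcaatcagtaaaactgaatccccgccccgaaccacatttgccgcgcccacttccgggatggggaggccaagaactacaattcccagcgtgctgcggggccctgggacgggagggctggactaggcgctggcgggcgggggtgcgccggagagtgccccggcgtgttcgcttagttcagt
CYB5A (chr18:74291964-74292213, minus strand): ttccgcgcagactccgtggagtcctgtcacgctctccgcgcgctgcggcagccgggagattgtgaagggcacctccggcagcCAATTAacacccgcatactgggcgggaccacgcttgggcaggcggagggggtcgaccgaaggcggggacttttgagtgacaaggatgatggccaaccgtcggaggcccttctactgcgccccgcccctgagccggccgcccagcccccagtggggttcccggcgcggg

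The motif searched was TAATTG, which reads CAATTA on the opposite strand, a form of the core bound by MSX-type homeodomains. In CYB5A it begins at position -168 relative to the start. Of the higher genes without overlap, 84 of 104 matched the promoter table and 3 of these (3.57%) held the motif within 250 bases before to 50 after the start, namely CYB5A, DNAJC6 and ZWINT. Of the lower genes, 43 of 52 matched and 5 (11.6%) held it, namely DSC1, KCTD20, KMO, LMCD1 and ZNF248. The share was 5.58% over the promoters of measured genes and 7.58% over all promoters of the table. These 8 genes came from the groups without overlap, and a match describes letters only.

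Lists of genes were next compared as groups, beside all genes, of which 9976 were higher and 9779 lower in the selected lines with a median difference of 0.0042. No member of the 21 lists passed the test. At the unadjusted limit 3.48% of all genes were called, and the lists ran from 0% to 17.6% of their members. The highest shares were 3 of 17 T-ALL oncogenes and E proteins (17.6%), 2 of 14 B-cell markers (14.3%), 1 of 8 HOXA cluster and TALE cofactors (12.5%) and 2 of 20 genes of the PI3K and AKT pathway (10%), so that each rests on 1 to 3 genes. Among BMP ligands and antagonists 8 of 13 were higher and 5 lower, with a median of 0.04. CHRDL1, a BMP antagonist, read 9.77 in LOUCY, 5.50 in JURKAT and 4.05 in HPB-ALL against 2.84 to 6.08, so that LOUCY alone was above the others, and the difference of 2.31 was 0.65 without it. BMP receptors and signal transducers were higher in 13 of 19 members (median 0.15). SMAD1, a BMP transducer, read 8.15 to 8.77 in the selected lines and 3.79 to 8.89 in the others. ACVR1, a type I receptor, read 7.52 in JURKAT and 6.76 in LOUCY but 4.91 in HPB-ALL against 3.53 to 6.72, and SMAD9, another BMP transducer, 5.30 to 6.55 against 3.67 to 6.01. The TGF-beta branch was higher in 12 of 14 members with a median of 0.39. SMAD3, its transducer, read 8.14 in HPB-ALL, 7.90 in LOUCY and 6.33 in JURKAT against 4.72 to 8.17, and SMAD2, a further one, read 9.54 to 9.92 with CCRF-CEM above and MOLT-4 lowest at 9.07. LTBP1, a TGF-beta binding protein, read 8.33 in LOUCY, 7.15 in JURKAT and 6.16 in HPB-ALL against 4.14 to 7.76, and its difference of 1.21 was 0.65 without LOUCY.

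AUTS2 and polycomb complex genes were divided evenly, with 14 of 26 higher, 12 lower and a median of 0.04. AUTS2 was their only member without overlap, beside 0.526% of all genes higher without overlap. EZH2, the methyltransferase of the second polycomb complex, read 2.53 in LOUCY, 10.96 in JURKAT and 10.69 in HPB-ALL, and 9.73 to 11.19 in all other lines. The single EZH2 probe set was thus at background in LOUCY, and the difference of -2.11 was 0.66 without this line. The casein kinase subunit CSNK2B read 11.5 to 11.85 against 10.77 to 11.83. Partners of MSX1 and homeodomain corepressors had 5 of 12 members higher (median -0.08). TLE1, a corepressor, read 8.36 to 8.81 in the selected lines against 4.48 to 9.20, with a difference of 1.92. Other NKL homeobox genes had 16 of 35 higher (median -0.03). DLX3 alone was lower without overlap, at 3.42 to 3.50 against 3.58 to 4.54, within background levels. Over all genes 0.263% were lower without overlap. Of the HOXA cluster and TALE cofactors 8 of 19 genes were measured, with HOXA2 alone from the cluster, and 4 were higher (median 0.12). PBX3, a cofactor, read 9.11 in LOUCY, 9.02 in HPB-ALL and 7.90 in JURKAT against 6.78 to 8.42.

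Cell cycle genes and CDK inhibitors were higher in 21 of 26 members, with a median of 0.23, and 2 (7.69%) were called at the unadjusted limit, beside 3.48% of all genes. The mean over the list was 8.99 to 9.17 in the MSX1-expressing lines and 8.51 to 8.96 in the others. PLK1, a mitotic kinase, read 9.85 in HPB-ALL, 9.37 in LOUCY and 9.23 in JURKAT, and CCRF-CEM was at 9.34. CCNE1, the G1 cyclin, read 7.26 to 8.08 against 6.20 to 7.83. CDKN2A, whose products restrain the cell cycle and stabilise p53, had the largest difference of the list. It read 10.60 in HPB-ALL and 9.60 in LOUCY, but 5.15 in JURKAT, within the 3.35 to 6.34 of the other lines. A second CDKN2A probe set read 7.97, 7.38 and 3.45 in these lines.

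Of the PI3K and AKT pathway 12 of 20 members were higher (median 0.10). Beside 0.526% of all genes higher without overlap, 1 of these 20 members did not overlap. This was FOXO1, a transcription factor inhibited by AKT, with 6.81 in JURKAT, 6.54 in LOUCY and 5.89 in HPB-ALL against 3.45 to 5.78 (difference 1.97 ± 0.45 SE, limma adjusted p 1). Its other probe sets differed by 1.48 and 0.04, and in the first LOUCY at 4.88 lay below CML-T1 at 5.59. PHLPP1, an AKT phosphatase, read 6.82 to 8.47 against 5.29 to 7.75, and PIK3R1, the regulatory subunit, 7.41 in JURKAT, 8.41 in HPB-ALL and 8.89 in LOUCY against 8.14 to 10.40. The difference of PIK3R1 was -0.88, and -0.47 without JURKAT. Apoptosis regulators were split, with 12 of 25 higher (median -0.0046). Among them TNFSF10, the death ligand TRAIL, read 5.01 in LOUCY, 3.92 in JURKAT and 2.92 in HPB-ALL. The other lines ranged from 3.28 in SUP-T1 to 11.13 in MOLT-14, so that HPB-ALL was below all of them, and the difference was -3.72. Homing and adhesion genes were lower in 17 of 27 members (median -0.12). ANXA5, a phospholipid-binding annexin, read 3.01 in LOUCY and 3.42 in HPB-ALL but 7.88 in JURKAT against 3.20 to 9.91, and the integrin chain ITGAL 5.92 to 7.65 against 5.62 to 11.72.

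Markers of T-cell stages were heterogeneous among the MSX1-expressing lines. Double positive thymocyte markers were higher in 13 of 18 members (median 0.50), but the list mean spread from 5.10 to 10.33 over the 3 lines and from 5.71 to 9.39 over the others. CD1D, an antigen-presenting molecule of cortical thymocytes, read 9.36 in JURKAT and 8.25 in HPB-ALL but 2.96 in LOUCY, against 2.86 to 8.13 in the others. LEF1, a transcription factor of thymocytes, read 12.61 to 13.31 against 11.94 to 13.08. TCF12, an E protein, read 9.79 in LOUCY, 11.82 in JURKAT and 11.40 in HPB-ALL against 9.59 to 11.14, and its difference of 0.64 was 1.25 without LOUCY, 0.44 without HPB-ALL and 0.23 without JURKAT. Early progenitor markers were higher in 14 of 21 (median 0.48). FLT3 read 3.78 to 4.95 against 3.36 to 4.38, the myeloid and stem cell factor SPI1 6.22 in LOUCY against 4.03 and 3.31 in JURKAT and HPB-ALL, and CD34 4.03 to 5.22 against 4.76 to 6.96. T-ALL oncogenes and E proteins had 10 of 17 higher (median 0.04), with LMO1 at 4.22 to 5.44 against 3.40 to 4.59. T-lineage regulators and NOTCH targets had 12 of 21 higher (median 0.33). Herein the Ikaros family gene IKZF2 read 11.06 to 11.47 against 10.10 to 11.21, and SATB1, a chromatin organiser of thymocytes, 10.72 to 12.19 against 8.90 to 11.63. BCL11B, required for T-cell commitment, read 9.22 in LOUCY and 11.05 and 11.03 in JURKAT and HPB-ALL against 10.24 to 11.79.

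CD3 chains and T-cell receptor signalling genes had 15 of 31 higher (median -0.05). PTPN6, a phosphatase that dampens receptor signals, read 9.42 to 10.95 against 7.14 to 10.37 and ZAP70, the receptor kinase, 9.79 to 10.77 against 9.30 to 10.22. SYK, the related kinase of B-cells and progenitors, read 8.94 in LOUCY, 6.59 in JURKAT and 3.20 in HPB-ALL against 3.40 to 6.05. Mature T-cell markers were lower in 9 of 14 members (median -0.26). S1PR1, the receptor for thymic egress, read 2.65 in LOUCY and 2.71 in HPB-ALL, below the 4.19 to 8.72 of the other lines, whereas JURKAT was at 6.33.

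Markers of other lineages gave no common shift. NK and cytotoxic markers had 9 of 23 higher (median -0.10). CD244, an NK receptor, read 9.81 in HPB-ALL and 8.84 in LOUCY but 4.73 in JURKAT against 4.21 to 8.61, and TBX21, a regulator of cytotoxic cells, 3.77 to 5.22 against 3.51 to 4.83. B-cell markers had 9 of 14 higher (median 0.21), with CD72 at 9.13 in HPB-ALL, 6.69 in JURKAT and 6.25 in LOUCY against 3.82 to 7.45 and BLNK near background at 3.16 to 4.19. Myeloid markers had 9 of 17 higher (median 0.03) and erythroid and megakaryocyte markers 8 of 12 (median 0.10), where HBD, the delta globin gene, read 7.61 in LOUCY against 3.04 to 4.71 in the other 8 lines. The list means in the selected and the other lines were 4.37 to 6.01 and 4.35 to 6.61 for NK, 4.88 to 6.61 and 4.67 to 5.73 for B-cell, 3.95 to 4.85 and 4.21 to 4.40 for myeloid, and 4.96 to 6.22 and 4.77 to 5.64 for erythroid and megakaryocyte markers. Their part in the differences between the groups was not tested.

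**Figure D5:**
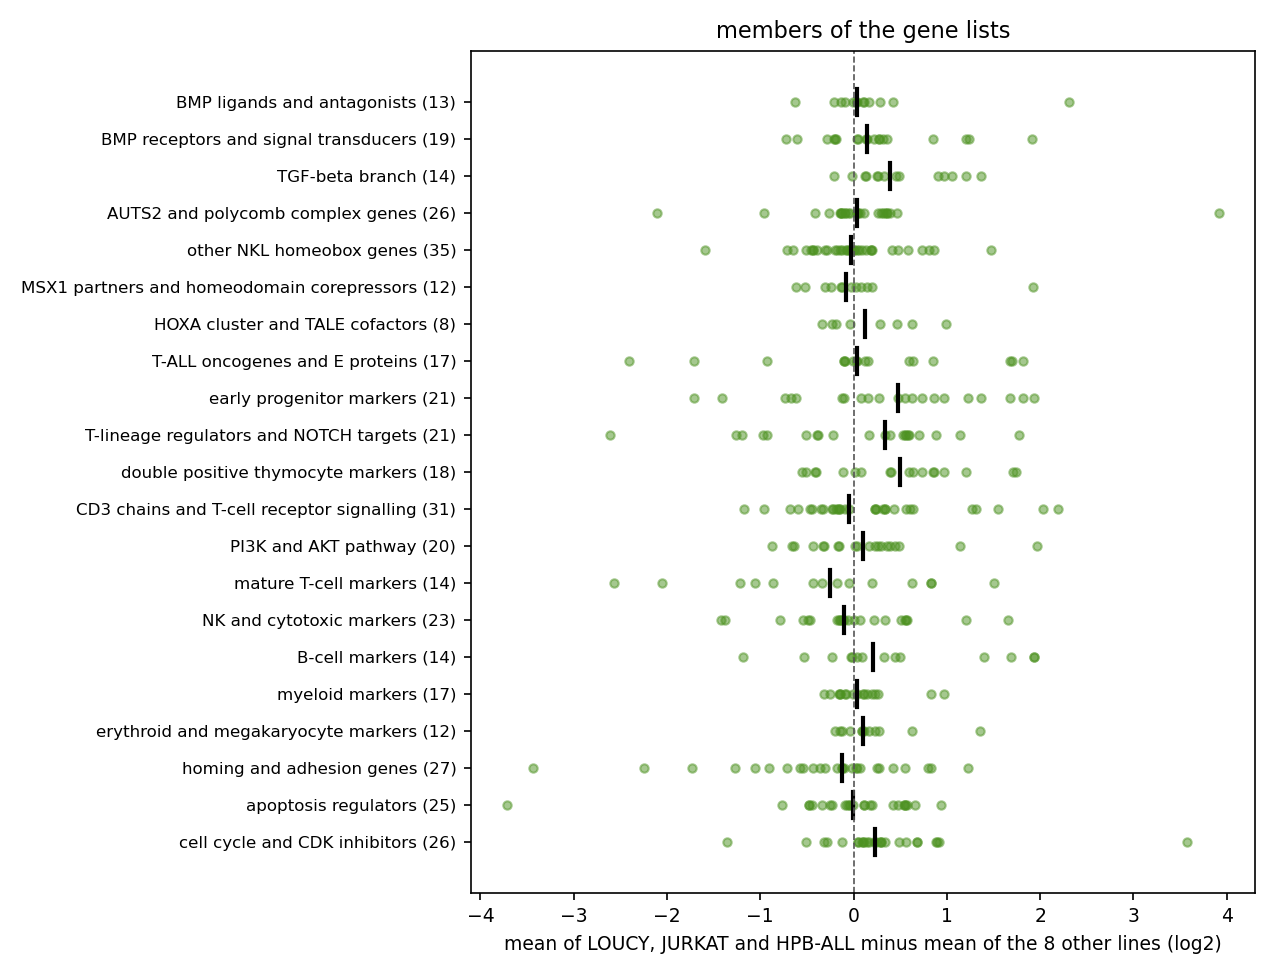
Difference of each list member (green points) between the mean of LOUCY, JURKAT and HPB-ALL and the mean of the 8 other lines (log2, horizontal axis), with the number of measured members in brackets, the list median (black bar) and the median of all genes (dashed line, 0.0042). List medians lie between -0.26 for mature T-cell markers and 0.50 for double positive thymocyte markers, and AUTS2 at 3.92, CDKN2A at 3.57, ANXA5 at -3.44 and TNFSF10 at -3.72 are the outermost members.

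Finally, the genes around MSX1 were examined for a shared change of the region. MSX1 lies on chromosome 4 (GRCh38.p14, chr4:4859665-4863936). Of 13 measured genes within 1 Mb, 9 were higher in the selected lines, and the median difference was 0.15. Of these 13 genes, 0 were without overlap (over all genes 0.526% higher and 0.263% lower). An unadjusted p below 0.05 was found for 2 of them (3.48% over all genes). Within 2 Mb there were 39 genes, of which 3 had such a p and 22 were higher. The 2 genes were TMEM128 with 8.48 to 9.11 against 6.96 to 8.82, and STK32B, a serine/threonine kinase gene, with 4.37 to 5.97 against 3.92 to 5.22. Higher values of 1 line alone were seen for LYAR in LOUCY (11.83, others 8.91 to 9.82) and CYTL1 in HPB-ALL (7.24, others 2.84 to 5.26).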

How the data were processed

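Deposited values were RMA-processed log2 expression levels of HG U133 Plus 2.0 arrays. According to the methods, the authors applied RMA background correction and quantile normalization with affy and limma, and mention ratios to the sample mean, but the deposited levels (2.24 to 14.71) are not centred; versions are not given in the sources used here. Lines were grouped by MSX1 level, NKL status came from the labels, and members and gene lists were chosen with earlier results of these data known. 62 control and 2 MSX1 probe sets of 54675 were left out. 54611 probe sets were compared with limma 3.58.1 (R 4.3.3), 3 against 8 lines, Benjamini-Hochberg adjustment, threshold 0.05. The p-values measure the spread between lines with 1 array each. 41091 probe sets carried 1 symbol in the platform annotation, 1801 several and 11721 none; 19774 genes were read from the probe set with the highest mean. Named were the 15 largest differences per direction without overlap, genes standing out in exactly the 3 lines, members of 21 lists (395 of 445 genes measured) from the 3 with the smallest p, genes tied to MSX1 by the study and its neighbours; HECTD2, TFDP1, RUNX2 and the genes with the motif were added after their values were seen. Alternatives were terms or subsets for poly-A controls and NKL status, single lines left out, other scaling, filters, floors, weights, probe set choices, gaps and windows. The fit was tested on simulated data. The number of arrays limits precision.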

Additional observations from a re-analysis of the deposited data

Results flagged for a closer look

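Within the 8 other lines, a single line stood apart from the remaining 7 in 7 of the 87 named genes examined. The limit used gives about 1 in 20 for normally spread values. The named genes were partly chosen from these same values, so that rate cannot be applied to them. MOLT-14 was high for ZNF276 (7.32, remaining lines 6.21 to 6.72) and for ZAP70 (10.22, remaining 9.30 to 9.72). MOLT-4 was high for SPI1 (4.64, remaining 2.96 to 3.73) and for CD34 (6.96, remaining 4.76 to 5.49). MOLT-16 was low for BCL11B (10.24, remaining 11.18 to 11.79), ALL-SIL was low for ANXA5 (3.20, remaining 6.76 to 9.91) and CML-T1 was high for SMAD7 (6.84, remaining 2.92 to 4.76).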

How the results depend on the processing

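No paired analysis was possible because no line was profiled in both groups. The number of probe sets past the test, 0 in the comparison as described, became 2 (SYK and RUNX2) with the lines that had poly-A signal alone, 6 with a term for NKL status, 6 with NKL-positive lines alone, 1 after quantile normalization, 4 with a floor at the 25th percentile, 1 with 1 probe set per gene and 1 at an adjusted p below 0.1. It ranged from 0 to 17 when single lines were left out: 17 without JURKAT, led by TFDP1 (3.85 in LOUCY and 3.94 in HPB-ALL, 10.20 or more in all other lines), 11 without LOUCY, 1 without SUP-T1 and 0 without any other line. A term for the poly-A controls, centring, a filter on dim probe sets, an intensity trend, array weights and means over the probe sets of a gene left it at 0. The lines with poly-A signal exclude HPB-ALL, so that 2 selected lines were compared with 6. The SYK probe set called there is another than the one described above. It read 8.81 in LOUCY, 7.26 in JURKAT and 3.26 in HPB-ALL. Genes higher without overlap numbered 645 among lines with poly-A signal and 1045 among NKL-positive lines, and 127 to 466 when single lines were left out (384 without HPB-ALL, 395 without JURKAT, 466 without LOUCY). Genes lower without overlap numbered 648, 790, 21 after the filter on dim probe sets, and 65 to 328 when single lines were left out (328 without HPB-ALL, 325 without JURKAT, 230 without LOUCY, 89 each without MOLT-16 and SUP-T1). With fewer lines the criterion is easier to meet. Genes standing out in exactly the 3 lines numbered 12 with a gap of 1 log2 unit and 0 with a gap of 3, calls near MSX1 1 within 500 kb, and motifs in promoters of lower genes 3 in the 250 bases alone. At the unadjusted limit there were 969 probe sets after the filter on dim ones, 663 with 1 probe set per gene and 667 with means per gene, against 1802.

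Of 87 named genes, which do not include TFDP1, RUNX2 and the genes named for the motif alone, 74 kept their direction in every tested alternative. With the poly-A signal lines alone TLX3 differed by -0.22, BMP4 by -0.42 and CYTL1 by -0.30. With a term for NKL status, and likewise with NKL-positive lines alone, SMAD1 differed by -0.11, HHEX by -1.31, NKX2-3 by 0.14 and LYL1 by -0.73. Array weights gave -0.17 for HHEX and -0.30 for LYL1, and quantile normalization -0.0027 for TAL1. Leaving out single lines gave ranges of -2.54 to 1.48 for TAL1, -1.44 to 1.03 for LYL1, -1.33 to 2.45 for HHEX, -0.59 to 0.67 for SMAD7, -0.47 to 1.22 for BMP4, -0.26 to 0.88 for BMPR2, -0.72 to 0.19 for PCGF5, -0.13 to 0.0137 for NKX2-3, -0.0762 to 2.28 for TLX3, -3.56 to 0.66 for EZH2, -0.0512 to 1.31 for LYAR and -0.26 to 1.69 for CYTL1. Between HPB-ALL and the other lines with poly-A controls at background, 1 line against 2, which was not tested, 13 named genes had the opposite sign. The causes of these shifts were not tested.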
